A study of Sus scrofa with 4 samples.

Results

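The miRNAs described here are those known from immune cells and microglia: miR-142, miR-146, miR-150, miR-155 and miR-223. In the table of annotated pig miRNAs every entry of these numbers was taken, whatever its letter or arm, which gave 7 of 321 miRNAs. In the table of conserved sequences, which lists mature miRNA sequences of many species, the families mir-142, mir-146, mir-150, mir-155 and mir-223 were taken, which gave 60 of 2791 sequences. miR-223 was read from the conserved table only. The members were taken by name, and the choice was made with earlier results of these data known.

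The study sequenced small RNA of the hippocampus of Rongchang piglets, a breed from China. The genotype field of all libraries reads "wide type". Of 8 littermates, 4 were uninjected controls and 4 received 200 mg of iron dextran intramuscularly, on postnatal days 3 and 4, as a model of oxidative stress. Ventral and dorsal hippocampus were taken from each group and tissue was mixed, so each of the 4 combinations is 1 pooled library. The spread between piglets was therefore not measured, the sources used here give no age at dissection, and every interval below covers counting error only and compares libraries. Where 4 values stand together below, they run in the order ventral control, dorsal control, ventral iron, dorsal iron. The libraries held 11396809 to 13839556 annotated miRNA reads. Marker miRNAs of neurons were abundant in each, at a summed 59226 to 72881 CPM (the unit used below, counts scaled by TMM to a common library size).

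miRNAs are made as hairpins whose arms, called 5p and 3p, can each give a mature strand, and bases 2 to 8 of that strand, the seed, pair with target mRNAs. miR-142 is made in blood-derived cells of all lineages, and in brain it is used as a marker of microglia and of blood cells. miR-146a and miR-146b are induced by NF-kB signalling and lower the signalling proteins TRAF6 and IRAK1, so they act as brakes on innate immune signalling. miR-155 is induced in activated macrophages and microglia and favours inflammation, miR-150 is abundant in mature lymphocytes, and miR-223 in neutrophils and other myeloid cells.

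Leading sequences of each member, from the conserved table, are shown because the comparison of paralogs, arms and first bases rests on them. Capitals mark the seed, and each is written 5′ to 3′.
miR-146b, 24 nt: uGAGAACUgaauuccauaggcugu
miR-146b, 21 nt, the form listed for pig: uGAGAACUgaauuccauaggc
miR-146a-5p: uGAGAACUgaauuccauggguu
miR-142-5p, earlier start: cCCAUAAAguagaaagcacuac
miR-142-5p, later start, listed for pig: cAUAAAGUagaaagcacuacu
miR-142-3p, earlier start: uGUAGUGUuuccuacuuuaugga
miR-142-3p, later start: gUAGUGUUuccuacuuuaugga
miR-150: uCUCCCAAcccuuguaccagug
miR-155-5p: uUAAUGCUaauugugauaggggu
miR-223-3p: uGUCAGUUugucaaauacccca
miR-146a and miR-146b share the seed GAGAACU and differ over their first 22 bases by G18A and U21C, counted from the 5′ end with the base of miR-146a first. Their hairpins are separate genes. In RefSeq's Sscrofa11.1 gene table, MIR146A has PTTG1 and MIR146B has CUEDC2 as a protein-coding neighbour. The miR-155-5p sequence above is that listed for mouse, 1 base longer than the pig entry. The human form differs by U12C, and all sequences of that family's 5p arm other than the pig and mouse form took 4, 2, 0 and 1 reads, against 959, 855, 849 and 718 for the pig and mouse form.

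miR-146b was low in the control ventral library and about equally high in the other 3. The controls had 5510 reads in ventral and 11562 in dorsal, and the iron libraries 10786 and 10846, or 380.2, 937, 875 and 1019 CPM. Its highest level was 2.68 times its lowest, the fourth widest span of 251 measured miRNAs, whose median span was 1.33. Only miRNAs with 10 CPM or more in some library were counted as measured, which 6 of the 7 annotated members were. In bulk tissue, a change in the number of cells of a type and a change in RNA per cell cannot be told apart.

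Against control ventral, the paralog miR-146a-5p went the other way in both iron ventral and control dorsal. The controls had 2136 reads in ventral and 1669 in dorsal, and the iron libraries 1362 and 1218, or 147, 135, 110 and 114 CPM. Both control libraries were above both iron libraries. Iron against control was 0.749 in ventral (95% counting interval 0.6997 to 0.803) and 0.846 in dorsal (0.785 to 0.911), neither of them 2-fold.

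**Figure D1:**
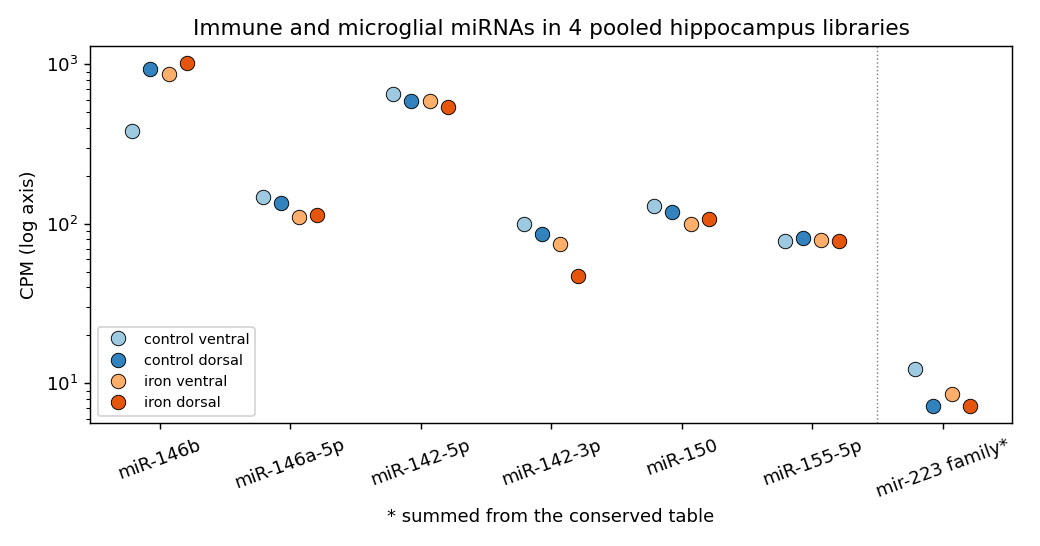
CPM on a log axis of the 6 measured annotated members and of the mir-223 family, which is summed from the conserved table, with 1 point per pooled library. miR-146b lies at 380.2 CPM in control ventral and at 875 to 1019 CPM elsewhere, while miR-155-5p stays between 78.0 and 82.0 CPM.

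Within a library the ratio of the paralogs does not depend on scaling. miR-146b made up 72.1% of miR-146 reads in ventral control tissue (95% interval 71.0% to 73.1%, exact binomial) and 87.4% in its dorsal counterpart (86.8% to 87.9%). With iron the shares were 88.8% in ventral (88.2% to 89.3%) and 89.9% in dorsal (89.4% to 90.4%). The control ventral library stood apart, and the other 3 lay within a few percentage points of each other. Relative to miR-146a-5p, miR-146b was 3.07 times as high in iron as in control ventral (Woolf 95% interval 2.85 to 3.31) and 1.29 times as high in iron as in control dorsal (1.19 to 1.39). Dorsal against ventral, the same quantity was 2.69 (2.4999 to 2.88) in control and 1.12 (1.04 to 1.22) in iron.

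miR-146b was the 1 annotated member that reached 2-fold with an interval excluding 1. It did so in iron against control ventral, at a ratio of 2.30 (2.23 to 2.38), where 0.398% of the 251 measured miRNAs were at least 2-fold higher and 1.59% at least 2-fold lower. It did so again in control dorsal against control ventral, at 2.46 (2.39 to 2.55), where the shares were also 0.398% higher and 1.59% lower. miR-146b had the highest ratio of the 251 in both. These comparisons share the control ventral library, so they are not independent of each other. In iron against control dorsal 0 members were counted, against 0.797% of all miRNAs higher and 0% lower, and in iron dorsal against iron ventral 0 were, against 0.398% higher and 0.398% lower.

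The remaining contrasts of miR-146b were small. Its ratio was 1.09 (1.06 to 1.12) in iron against control dorsal, and 1.16 (1.13 to 1.196) in iron dorsal against iron ventral. With total count scaling the first of these became 0.996 (0.970 to 1.02), so its direction is not settled. The log2 ratio of iron to control was 1.202 in ventral and 0.12 in dorsal. The difference between the regions was not tested, since no residual degree of freedom is left for it. In the conserved table the mir-146 family stood at 509, 1034, 971 and 1105 CPM. The family was 2.03-fold higher (1.97 to 2.09) in control dorsal than in control ventral and 1.91-fold higher (1.85 to 1.97) in iron than in control ventral, since it includes miR-146a. By the same 2-fold rule, of 188 measured families 0% were higher and 2.66% lower with iron in ventral, and 0.532% were higher and 2.13% lower in control dorsal than in control ventral.

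The control ventral library also differed in a joint list of miRNAs for epithelium and for choroid plexus, the tissue that makes cerebrospinal fluid. The 5 annotated miRNAs of that list were miR-204, miR-182, miR-183, miR-96-5p and miR-429, so it does not stand for choroid plexus alone. None of the 5 was at 0 in all libraries. They summed to 709.9 CPM in control ventral and to 302 to 353 CPM in the other 3. Of the list's 4 measured miRNAs, miR-204 differed least from control ventral, at a ratio of 0.703 in iron ventral and 0.788 in control dorsal. The largest differences were those of miR-183, at 0.125 and 0.154. Muscle miRNAs (3 of 5 annotated measured, none at 0 in all libraries) were lowest in control ventral, like miR-146b, at a summed 175, 282, 261 and 229 CPM. The part of either list in the miR-146b difference was not tested. Erythroid miRNAs (3 of 3 measured) summed to 1075, 837, 1019 and 861 CPM, so both ventral libraries were above both dorsal ones. Vascular miRNAs (6 of 6 measured) summed to 16024, 21937, 17044 and 18871 CPM. They were lowest in control ventral, but both ventral libraries were below both dorsal ones, unlike for miR-146b. The part of the vascular miRNAs in the miR-146b difference was not tested either.

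**Figure D2:**
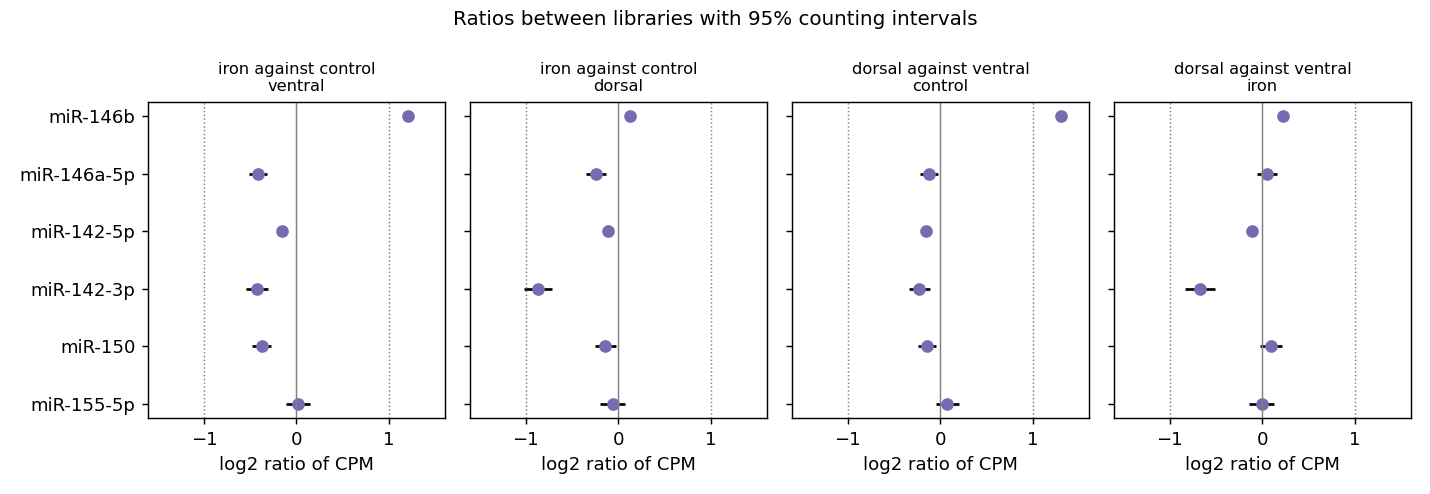
Log2 ratios of CPM of the 6 measured members in 4 pairwise comparisons of pooled libraries. Lines are 95% counting intervals, hidden by the point where narrow, and dotted lines mark 2-fold. miR-146b passes 2-fold at 1.202 and 1.30 in the 2 comparisons with control ventral, and miR-142-3p comes nearest on the lower side at -0.87.

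The 2 arms of miR-142 differed in level and in how far they varied. miR-142-5p had 9457, 7255, 7224 and 5772 reads, or 653, 588, 586 and 542 CPM, a span of 1.204. miR-142-3p had 1456, 1060, 924 and 501 reads, or 100, 85.9, 74.9 and 47.1 CPM, a span of 2.14 and the ninth widest of 251. Both arms were highest in control ventral and lowest in iron dorsal. Comparing levels of different strands also reflects how well each is captured in a library, which was not measured.

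The 3p arm was the more variable, and its lowest level was that of iron dorsal. Against control dorsal, iron dorsal had miR-142-3p at a ratio of 0.548 (0.492 to 0.6097), the fourth lowest of 251, and miR-142-5p at 0.922 (0.891 to 0.955). Against iron ventral, iron dorsal was at 0.628 (0.562 to 0.701) for miR-142-3p and 0.925 (0.894 to 0.958) for miR-142-5p. In ventral hippocampus, iron against control was 0.746 (0.686 to 0.811) for the 3p and 0.898 (0.871 to 0.926) for the 5p arm. miR-142-3p therefore had a ratio under 1 in iron in both regions, without reaching 2-fold in either. With total count scaling its dorsal ratio was 0.502 (0.4504 to 0.559), at the edge of 2-fold. Oligodendrocyte miRNAs (2 of 3 annotated measured, none at 0 in all libraries) were also lowest in iron dorsal, at a summed 10264, 11503, 13906 and 8812 CPM, with ratios of iron dorsal to iron ventral of 0.633 for miR-219b-3p and 0.642 for miR-338. Neuron miRNAs (9 of 10 measured, none at 0 in all libraries) were lowest there too, at 66541, 72881, 70188 and 59226 CPM. The part of these lists in the miR-142-3p difference was not tested.

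As a share of miR-142 reads, the 5p arm made up 86.7% in ventral (86.0% to 87.3%) and 87.3% in dorsal controls (86.5% to 88.0%). With iron it made up 88.7% in ventral (88.0% to 89.3%) and 92.0% in dorsal (91.3% to 92.7%). The control libraries differed by no more than counting error, with 5p per 3p read 1.05 times as high in dorsal as in ventral (0.968 to 1.15). Iron against control it was 1.204 times as high in ventral (1.10 to 1.31) and 1.68 times in dorsal (1.51 to 1.88). Of 43 hairpins with both arms measured, miR-142 had the widest span of the 5p to 3p ratio over the 4 libraries, 0.83 on the log2 scale, where the median was 0.42. Arm ratios moved in other hairpins too: iron against control dorsal, the median absolute change was 0.30, with 0.77 for miR-2320, 0.73 for miR-30e and -0.78 for miR-374a beside 0.75 for miR-142, hairpins picked for their size. The 5p share was highest in iron dorsal for 14 of the 43 hairpins and in control ventral for 13.

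**Figure D3:**
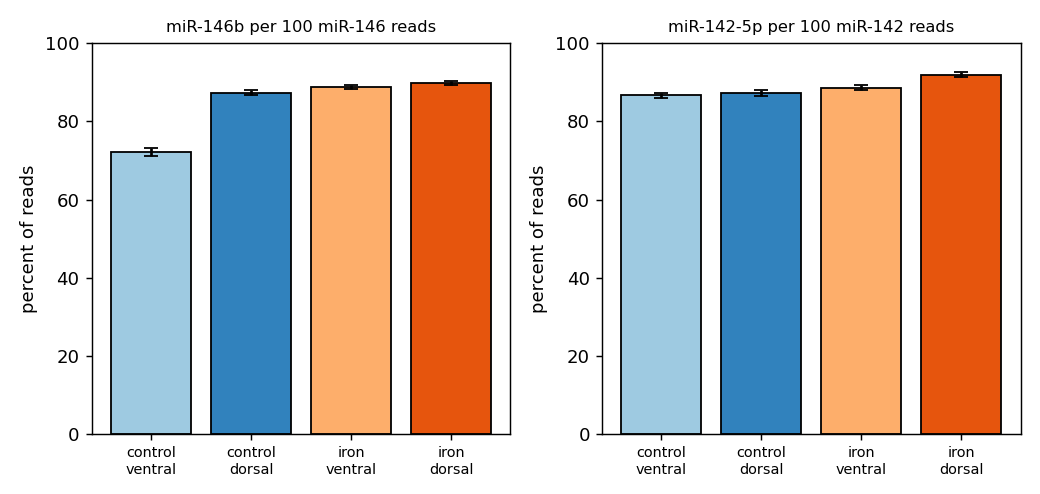
Percent of miR-146 reads (miR-146a-5p and miR-146b) that were miR-146b, left, and percent of miR-142 reads that were the 5p arm, right, in each pooled library, with exact binomial 95% intervals. The left panel has 72.1% in control ventral against 87.4% to 89.9%, and the right panel 92.0% in iron dorsal against 86.7% to 88.7%.

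The conserved table also separates reads of miR-142-5p by their first base. Strands that begin 2 bases earlier carry the seed CCAUAAA, and those with the later start carry AUAAAGU, so their seeds differ. The later start made up 47.2% of miR-142-5p reads in ventral (46.1% to 48.3%) and 36.3% in dorsal controls (35.1% to 37.5%). With iron it made up 42.2% in ventral (40.95% to 43.4%) and 35.3% in dorsal (34.0% to 36.7%). Both ventral libraries were above both dorsal ones. The odds of the later start were 0.637 times as high in dorsal as in ventral control (0.596 to 0.681) and 0.749 times in iron (0.693 to 0.809), and these comparisons share neither a library nor a piglet.

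The later start ranged more widely than the earlier start. Earlier-start reads stood at 306, 333, 302 and 301 CPM of the conserved table. Later-start reads stood at 273, 189, 220.2 and 164 CPM. Dorsal against ventral, the later start had a ratio of 0.693 (0.658 to 0.7295) in control and 0.746 (0.702 to 0.794) in iron. For the earlier start these were 1.09 (1.04 to 1.14) and 0.996 (0.9496 to 1.05). Iron against control, the later start had a ratio of 0.805 (0.766 to 0.846) in ventral and the earlier start 0.986 (0.943 to 1.03). In dorsal both starts were lower with iron, at 0.868 (0.815 to 0.924) for the later and 0.903 (0.862 to 0.946) for the earlier. The 3p arm showed no such shift: its later start, with the seed UAGUGUU, made up 20.1%, 20.6%, 21.03% and 19.8% of reads, within counting error of each other.

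For scale, 102 groups of overlapping conserved sequences had 2 start classes with at least 50 reads each in every library. The log2 odds of the later start differed between dorsal and ventral in the same direction in both treatments for 41 of them. Ranked by the smaller of the 2 differences, miR-142-5p came first, at -0.65 in control and -0.42 in iron, where the median absolute differences were 0.12 and 0.12. By size alone it ranked 3 in control and 7 in iron. This pattern was noticed in the values, so the rank is a description and no test was made. The sources used here do not say how the authors divided reads between similar sequences, and the sequence of the miR-142-5p group with fewest reads took 108 of 8275 reads in control ventral.

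**Figure D4:**
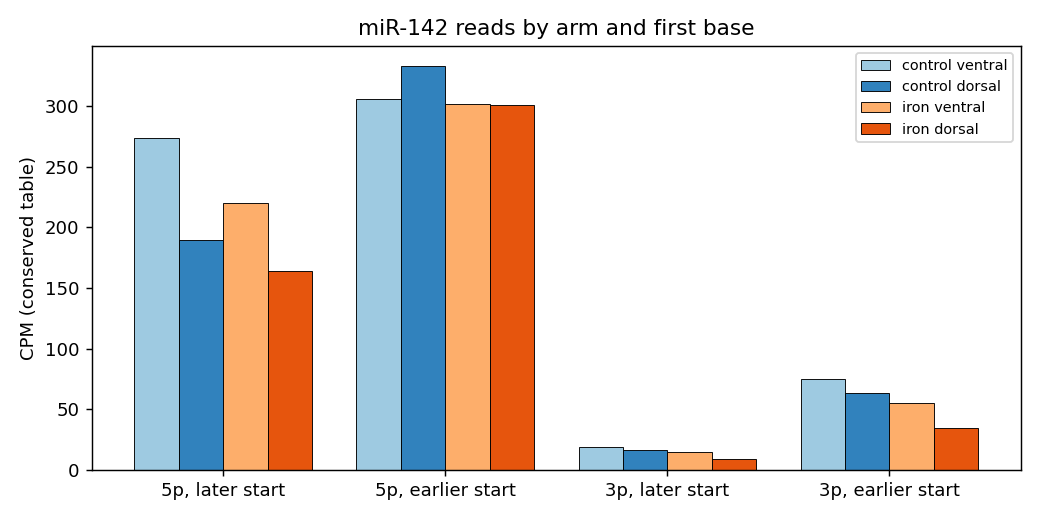
CPM of the conserved table for miR-142 reads grouped by arm and first base, with 1 bar per pooled library and no replicate error. The later start of the 5p arm ranges from 164 to 273 CPM with both ventral libraries above both dorsal ones, while its earlier start lies between 301 and 333 CPM.

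At the 3′ end the forms of miR-146b differed less. The 24 nt forms, longer than the form listed for pig, made up 68.4% of miR-146b reads in ventral (67.1% to 69.6%) and 73.9% in dorsal controls (73.0% to 74.7%). With iron they made up 70.9% in ventral (69.97% to 71.7%) and 66.5% in dorsal (65.6% to 67.4%). The 21 nt form made up 2.83% to 3.89%. The less abundant of the 2 sequences in the 24 nt class took 195.3 reads in control ventral, beside 194.3 for the 21 nt form. The longer of the 2 miR-146a-5p forms, of 22 nt, was also highest in control dorsal, at 83.9% (82.0% to 85.7%) against 77.8% to 79.1% elsewhere. The 23 nt form of miR-155-5p ran from 71.9% to 75.8%, with overlapping intervals. For miR-150 the 23 nt forms made up 44.6% to 46.0%, also within counting error. How reads were divided between similar sequences is not stated, so the shares by length describe listed sequences and not measured read lengths.

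miR-150, the lymphocyte miRNA, followed miR-146a-5p closely. It had 1889, 1458, 1239 and 1139 reads, or 130.3, 118, 100.5 and 107 CPM, and both controls were above both iron libraries. Iron against control was 0.771 (0.717 to 0.829) in ventral and 0.905 (0.837 to 0.979) in dorsal. The files list 2 hairpins for miR-150, whose reads cannot be told apart.

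miR-155-5p, the pro-inflammatory member, was nearly level. It had 1130, 1012, 973 and 836 reads, or 78.0, 82.0, 78.9 and 78.5 CPM, and with TMM scaling every one of the 4 pairwise intervals included 1. Its span of 1.05 ranked 248 of 251. Iron against control was 1.01 (0.928 to 1.10) in ventral and 0.957 (0.873 to 1.05) in dorsal, and the latter was 0.877 (0.799 to 0.962) with total count scaling. Its passenger strand miR-155-3p had 1, 4, 1 and 1 reads. It was at the counting floor of 3 reads, 0.217 to 0.263 CPM before TMM scaling, or near it in every library, so no fold is given.

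miR-223, the neutrophil and myeloid miRNA, was the rarest of the 5 families. Its 3p strand had 174 and 86 reads in ventral and dorsal controls and 100 and 72 with iron, and its 5p strand 3, 2, 3 and 4. The family stood at 12.4, 7.21, 8.58 and 7.27 CPM, highest in control ventral. Against that library, control dorsal was at 0.582 (0.445 to 0.755) and iron ventral at 0.692 (0.538 to 0.888). Iron against control dorsal was 1.01 (0.732 to 1.39) and iron dorsal against iron ventral 0.847 (0.621 to 1.15), both with intervals that include 1.

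Counted together, 4 of the 6 measured members had a ratio under 1 in iron against control ventral and 5 of 6 in dorsal, where 48.6% and 53% of all 251 miRNAs did. Dorsal against ventral, 4 of 6 did in control and 3 of 6 in iron, where 50.2% and 48.6% of all did. Total count scaling lowers all log2 ratios, with shifts of -0.06 and -0.13 in the iron comparisons of ventral and dorsal, after which 5 and 6 of the 6 members lay under 1 with 58.2% and 68.9% of all miRNAs. At this depth a counting interval that excludes 1 is common: it was found for 77.3% and 77.7% of all miRNAs in the iron comparisons of ventral and dorsal, and for 75.3% and 77.7% in the region comparisons of control and iron. Of the members, 5, 5, 5 and 3 of 6 had such an interval in these 4 comparisons. The members' median log2 ratio was -0.27 in ventral and -0.13 in dorsal, against 0.00 and -0.02 for all measured miRNAs. Dorsal against ventral it was -0.13 in control and 0.02 in iron, against 0.00 and 0.01. Without miR-146b the members summed to 1109, 1010, 951 and 889 CPM. With miR-146b the sums were 1489, 1947, 1826 and 1908 CPM, so the lowest sum lay in the library that was highest without it.

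**Figure D5:**
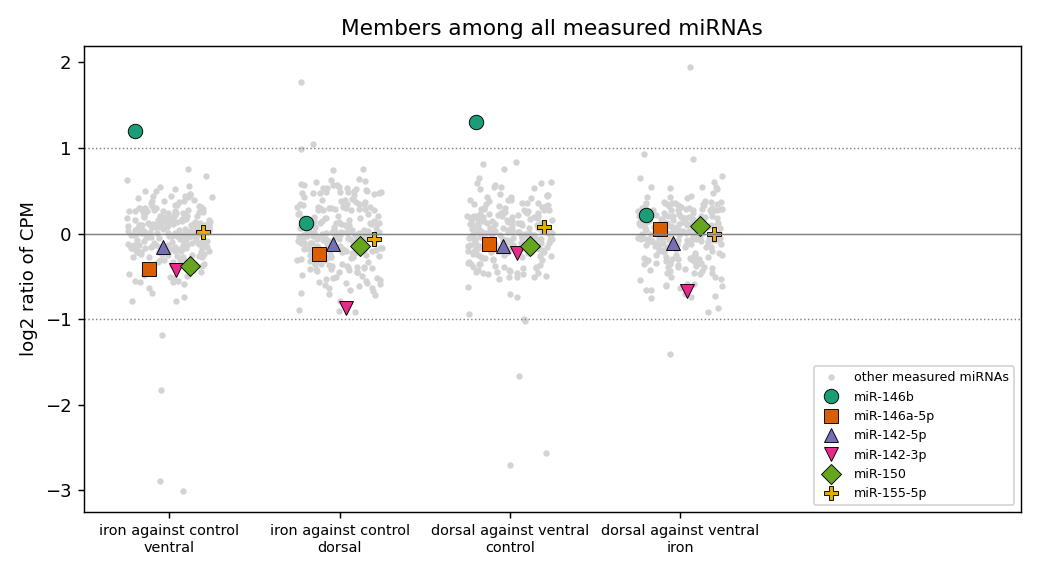
Log2 ratios of CPM of all 251 measured miRNAs (grey, spread sideways at random) and of the 6 members in 4 pairwise comparisons, with dotted lines at 2-fold. miR-146b is the highest point in both comparisons with control ventral, at 1.202 and 1.30, and the other members lie within the main cloud except miR-142-3p at -0.87 and -0.67 in the comparisons with iron dorsal.

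Over all 4 libraries, edgeR's quasi-likelihood test in a model of region and treatment called 0 of the 6 members at an adjusted p under 0.05, for iron or for region. It called 0% of all 251 miRNAs in each. For iron, 4.38% of miRNAs had an unadjusted p under 0.05, among them miR-146b, at a log2 difference of 0.66 ± 0.26 (SE; adjusted p = 0.929) and higher in iron in 2 of 2 regions with TMM scaling, and miR-142-3p, at -0.64 ± 0.26 (adjusted p = 0.929) and lower in 2 of 2. For region, 3.19% did, among them miR-146b, at 0.76 ± 0.27 (adjusted p = 0.852) and higher in dorsal in 2 of 2 treatments. By limma-trend and by the Wald test of DESeq2, 0 members passed as well. Of all miRNAs, limma-trend called 0 and DESeq2 called 1 for iron, miR-96-5p of the epithelial list (log2 difference -1.93 ± 0.495, adjusted p = 0.0255), and both called 0 for region. At an unadjusted p under 0.05 there were 11 by limma-trend and 13 by DESeq2 for iron, and 8 and 13 for region. The edgeR fit leaves 1 residual degree of freedom, so p-values rest on differences among 4 pooled libraries and not on replicates, and the ventral and dorsal pools of a treatment come from the same piglets.

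Other miRNAs linked to inflammation were read from a list that holds miR-21, miR-22, miR-24, miR-27a, miR-27b, miR-29b, miR-124, miR-125a, miR-125b, miR-132, miR-181a, miR-181b, miR-181c, miR-221 and miR-222, with 19 of 20 annotated arms measured. In each of the 4 comparisons 0 of the 19 were at least 2-fold different. Such differences were rare among all 251 miRNAs too. With iron, 0.398% were higher and 1.59% lower in ventral, and 0.797% and 0% in dorsal. Dorsal against ventral, the shares were 0.398% and 1.59% in control and 0.398% and 0.398% in iron. The count of 0 is thus near the share of all miRNAs. In iron against control the median log2 ratio of the 19 was 0.05 in ventral. There miR-181a was highest at 1.47 (1.47 to 1.48) and miR-29b lowest at 0.682 (0.655 to 0.711). In dorsal it was 0.01, where miR-221-5p was highest at 1.54 (1.503 to 1.58) and miR-181c lowest at 0.652 (0.636 to 0.668).

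The miRNA whose profile over the 4 libraries was most like that of miR-146b was miR-340, at a distance of 0.44 between mean-centred log2 CPM values. It stood at 2310 CPM in control ventral against 4072, 3912 and 4165 CPM in the others. miR-374a-3p (0.64), miR-369 (0.66), miR-1 (0.66) and miR-148a-5p (0.71) followed, and the paralog miR-146a-5p ranked 205 at 1.42. For miR-146a-5p the nearest were miR-376a-5p (0.06), miR-150 (0.08), miR-24-1-5p (0.10), miR-326 and miR-30a-3p (0.11 each). With 4 libraries these distances are a description.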

How the data were processed

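Small RNA of 4 pooled hippocampus libraries was analysed, 1 per combination of region and treatment. Per the submitters' processing notes, cutadapt 1.2.2 was used and the genome builds were Sscrofa10.2 and susScr3. The authors deposited reads per miRNA that are often fractions, so they were treated as estimated counts and rounded; the steps from reads to counts are not stated in the labels. RPM values were deposited by the authors too, whose divisor, 15748221 to 20347956 reads, lies within 0.1% of the sum of annotated and predicted rows. Of the other per-sample columns, 8 were not used.

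Annotated rows of the same precursors were merged where their reads differed by under 0.1% in each library, from 326 to 321. Libraries were scaled with TMM (edgeR 4.0.16). Ratios have exact conditional binomial (Clopper-Pearson) 95% intervals, and a miRNA was counted at 2-fold or more with an interval excluding 1. Ratios of ratios have Woolf intervals. Amplified reads are not independent molecules, so intervals cover counting error only. Families were summed and scaled with TMM separately, so levels are not compared across the tables. edgeR's quasi-likelihood test, ~ region + treatment, used Benjamini-Hochberg adjustment over 251 miRNAs. On simulated counts for the iron comparison (a median of 249.5 miRNAs) the share recovered was 90.3% for 2-fold changes and 100% for 4-fold changes, and 1.4 calls were false. The simulated libraries were independent, with the same fixed spread for every miRNA and the same planted change in both regions. These shares therefore do not give the power of the test in the real pools. DESeq2 1.42.0 and limma 3.58.1 were alternatives. All members were named. The members and lists were chosen with earlier results of these data known.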

Additional observations from a re-analysis of the deposited data

How the results depend on the processing

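The counts of members at least 2-fold different stayed the same in all 4 pairwise comparisons with total count scaling, DESeq2 size factors, the authors' RPM, a minimum of 100 CPM, no filter and rows not merged. With family sums of the conserved table the count in iron against control ventral was 0 in place of 1, where 0% of 188 families were higher and 2.66% lower, since that table's mir-146 family sums miR-146a and miR-146b. With the sequences of the conserved table, the miR-146b share was 88.02% in dorsal control, 89.3% in ventral iron and 90.5% in dorsal iron. Each lay above the counting interval of the annotated table, while 72.7% in ventral control lay within it. In the libraries above their interval, those sequences held 95.3%, 95.8% and 95.7% of the annotated miR-146b reads. For miR-146a-5p they held 89.8%, 90.5% and 89.7%, which raises the miR-146b share. Why the paralogs differ in this was not tested. The miR-142-5p shares stayed within their intervals, as did all shares with reads as deposited. edgeR, DESeq2 and limma-trend called 0 members under all settings run. The region difference of miR-155-5p, 0.03 on the log2 scale, became -0.0370 with total count scaling and -0.0123 with rows not merged. Over 8 fits the adjusted p of miR-146b ran from 0.199 to 0.929 for iron and from 0.0541 to 0.974 for region, and that of miR-142-3p for iron from 0.473 to 0.929. For iron, no paired analysis was possible because control and iron piglets are different animals in 1 pool per region. For region, the treatment term of the 4-library model already sets the ventral and dorsal pools of the same piglets against each other. Depth limits miR-223 and miR-155-3p most.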
